A study of Mus musculus with 2 samples.

Results

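The Wnt ligands, their Frizzled and Lrp receptors, their secreted antagonists and 3 readout genes of the pathway were examined in whole mouse lung at embryonic day 18. Members were the probe sets with a single listed gene symbol starting with Wnt, Fzd, Sfrp or Dkk and a digit, together with Lrp5, Lrp6, Axin2, Lef1 and Nkd1. They came to 86 probe sets for 43 genes, of 45037 probe sets and 18193 named genes in all. One of the 43, Fzd10os, is a transcript of the strand opposite Fzd10 and encodes no receptor, and it is kept apart below. Total RNA was measured on Affymetrix arrays, 1 array per genotype: wildtype, and homozygotes of Nmyc9a, a hypomorphic allele of Mycn. Both samples were pools of lungs. How many lungs went into a pool, the strain, and any further allele of the animals are not stated in the labels. With 1 array per group no test was possible and no difference has a replicate check.

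Wnt proteins are secreted lipid-modified ligands that bind Frizzled receptors, and in the canonical branch the Lrp5 or Lrp6 co-receptor as well. Binding stops the destruction complex from degrading beta-catenin, which then enters the nucleus and activates genes together with Tcf and Lef factors. Other branches act through planar polarity proteins and do not need beta-catenin. In the developing lung, ligands made by the epithelium and by the mesenchyme act on both layers and support growth, branching and the choice of cell fate.

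Signals are array units after the array labelled Nmyc9a was multiplied by 0.977, and each pair gives the wildtype array first. A gene is represented by its brightest probe set, and log2 ratios are of the array labelled Nmyc9a over wildtype. The floor was 49.3, the 40th percentile of all signals, and a gene was measured if its mean signal reached it. Values under the floor were raised to it, so a ratio against one is a bound. Levels are compared only within a probe set, because probes differ in how brightly they bind. Log2 ratios of probe sets for the same gene varied with an SD of 0.40, or 1.32-fold, pooled over 5671 genes, and of 0.39 among the members. The number of arrays limits the precision further, and that spread includes no difference between animals.

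The label could not be checked on its gene. Mycn read 66.3 and 84.8 on its brightest probe set and 51.1 and 85.4 on another, both near the floor, and no source used here places these probes relative to the alteration. Lung markers were present on both arrays: all 11 epithelial markers and all 7 mesenchymal markers were measured, and Sftpc, surfactant protein C, read 8639 and 8964. Several other marker lists differed between the arrays, and their counts follow the pathway genes.

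By their median and by the share below 0, the members as a family lay close to other genes. Of the 43 genes, 31 were measured and 12 were below the floor on both arrays. The median log2 ratio of the 31 was -0.09, equal at this rounding to the -0.09 of all 12600 measured genes, and 58.1% of members against 58.8% of all measured genes lay below 0. Within the family, 3 members were at least 1.5-fold higher on the array labelled Nmyc9a (9.68%, against 6.32% of all measured genes) and 5 were at least 1.5-fold lower (16.1%, against 9.71%). The higher ones were Wnt7a, Wnt8b and Sfrp4, and the lower ones were Wnt2, Sfrp2, Fzd5, Fzd8 and Fzd10os. Without Fzd10os, 4 of 30 were lower. Centred on the measured genes instead, the member counts stayed at 3 higher and 5 lower. Of 12608 measured genes, 1093 were then higher and 835 lower, in place of 796 and 1224. The share past 1.5-fold in either direction was 25.8% of members and 16% of all measured genes. Wnt8b alone passed 2-fold, upward and as a bound, against 1.29% of all measured genes. No member was 2-fold lower, against 1.38%, so 1 of 31 passed 2-fold in either direction, against 2.67%.

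**Figure D1:**
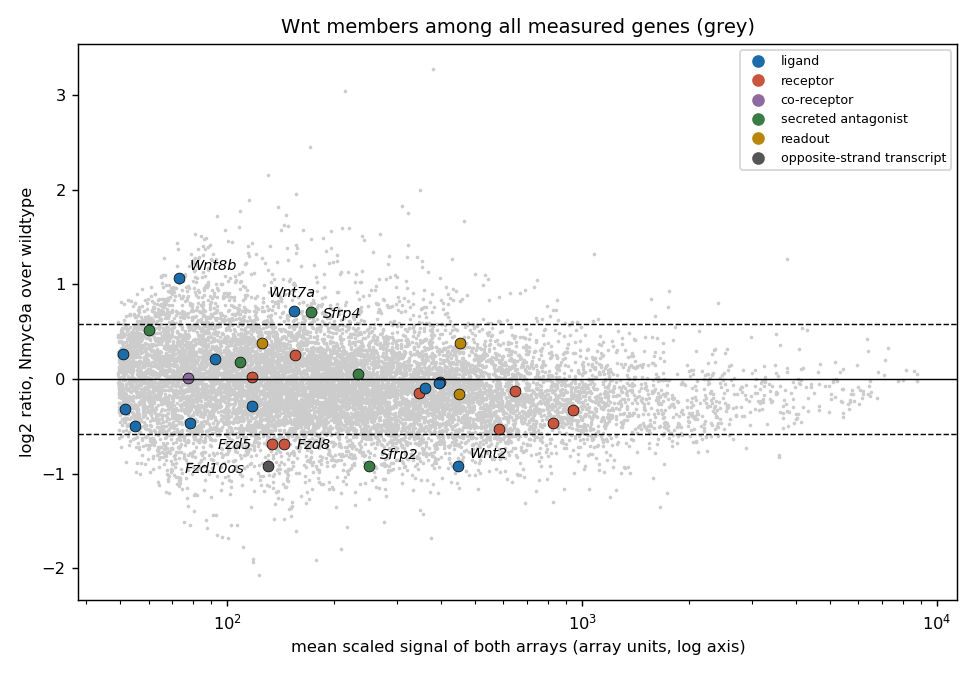
Log2 ratio of the array labelled Nmyc9a over wildtype (vertical axis) against the mean scaled signal of both arrays on a log axis, with 1 grey point for each of 12600 measured genes and coloured points for the 31 measured members by role. The dashed lines mark 1.5-fold, and the 8 named members lie on or beyond them inside the cloud of other genes.

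Sequence upstream of the members that were 1.5-fold apart is shown to let the letters of their promoters be read beside their signals. The RefSeq table for GRCm38.p6 had promoter entries for 28 of the 43 members, in 34 windows, and the 250 bases before each start were used. Among the 8 members past 1.5-fold, Wnt2, Sfrp2, Fzd5, Wnt7a and Wnt8b had an entry. Each window was searched on both strands for CACGTG, the E-box that Myc proteins bind, and for CTTTGA. The latter is 1 form of the core that Tcf and Lef factors bind, and other forms were not searched. The letters of these motifs do not overlap each other. None of these 5 windows held either motif, so they are printed wholly in lower case, 5′ to 3′ on the strand of the gene. The fourth Lef1 window is shown because it was the only member window with both motifs, printed in capitals where they match (TCAAAG is the reverse strand of CTTTGA). It belongs to the most downstream of the listed Lef1 starts. The other Lef1 windows, beginning at chr3:131110047, 131110073 and 131112541, held neither motif.
Wnt2 (chr6:18030446-18030695, minus strand): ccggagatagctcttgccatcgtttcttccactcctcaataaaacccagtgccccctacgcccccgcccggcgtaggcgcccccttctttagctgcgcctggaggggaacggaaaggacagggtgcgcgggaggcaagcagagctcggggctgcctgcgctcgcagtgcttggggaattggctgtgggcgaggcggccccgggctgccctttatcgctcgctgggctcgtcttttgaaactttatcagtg
Sfrp2 (chr3:83766071-83766320, plus strand): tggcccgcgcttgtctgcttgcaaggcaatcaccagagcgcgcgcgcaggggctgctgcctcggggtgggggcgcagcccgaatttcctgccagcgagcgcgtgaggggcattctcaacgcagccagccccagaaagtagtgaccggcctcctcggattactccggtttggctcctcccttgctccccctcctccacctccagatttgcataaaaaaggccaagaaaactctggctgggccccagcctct
Fzd5 (chr1:64737751-64738000, minus strand): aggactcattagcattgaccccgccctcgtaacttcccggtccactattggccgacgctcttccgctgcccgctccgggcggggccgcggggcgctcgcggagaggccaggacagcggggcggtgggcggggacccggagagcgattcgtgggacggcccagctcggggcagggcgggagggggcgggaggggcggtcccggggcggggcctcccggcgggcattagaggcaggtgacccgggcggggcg
Wnt7a (chr6:91411354-91411603, minus strand): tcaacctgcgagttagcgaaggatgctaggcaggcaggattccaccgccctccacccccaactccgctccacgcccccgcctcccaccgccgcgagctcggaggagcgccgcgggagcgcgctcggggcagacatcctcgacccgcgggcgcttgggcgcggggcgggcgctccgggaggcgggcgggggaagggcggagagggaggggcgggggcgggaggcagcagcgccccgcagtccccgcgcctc
Wnt8b (chr19:44493222-44493471, plus strand): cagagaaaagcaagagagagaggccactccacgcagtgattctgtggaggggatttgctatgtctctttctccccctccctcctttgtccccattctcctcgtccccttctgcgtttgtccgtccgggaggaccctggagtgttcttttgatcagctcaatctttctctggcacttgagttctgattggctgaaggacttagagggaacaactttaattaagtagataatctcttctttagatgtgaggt
Lef1 (chr3:131156044-131156293, plus strand): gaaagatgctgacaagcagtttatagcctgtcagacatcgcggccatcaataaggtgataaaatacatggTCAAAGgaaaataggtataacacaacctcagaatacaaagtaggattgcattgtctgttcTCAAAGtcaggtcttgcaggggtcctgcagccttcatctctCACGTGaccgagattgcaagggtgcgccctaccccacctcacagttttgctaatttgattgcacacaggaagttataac

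CACGTG occurred in 3 of the 34 member windows (8.82%), those of Fzd9, Lef1 and Wnt9a, and in 6.02% of all 32851 windows of this length. CTTTGA occurred in 5 of the 34 (14.7%), those of Dkk1, Fzd1, Lef1, Wnt11 and Wnt5b, and in 13.8% of all windows. In the printed Lef1 window the E-box began 79 bases before the most downstream listed start. The CTTTGA matches began 120 and 180 bases before that start. The windows of Wnt2 and Sfrp2 were both 63.6% G and C, against 76.4% for Fzd5, 77.6% for Wnt7a and 48.4% for Wnt8b. A match is a run of letters and not a measured binding site. The missing matches say nothing about sites elsewhere or about other forms of either motif.

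Among the ligands, Wnt2 was lower and Wnt7a and Wnt8b were higher on the array labelled Nmyc9a. Of 19 ligand genes 11 were measured, with a median log2 ratio of -0.09 that reached 0.03 after loess scaling. Wnt2, made by the distal lung mesenchyme and needed with Wnt2b to specify the lung, read 585 in wildtype and 310 on the array labelled Nmyc9a. It was 1.89-fold lower, a log2 ratio of -0.92, and between -0.92 and -0.77 under all 10 alternative settings. This gene has a single probe set, so its value has no second reading on the same arrays. Settings that changed the floor or the choice of probe set could not move it. The 7 markers of the mesenchyme, where Wnt2 is known to be made, ranged from -0.41 to 0.14. Their median was -0.10, and 0.13 after quantile normalization. The part of the mesenchymal signal in the Wnt2 value was not tested.

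Wnt7b, the epithelial ligand that drives growth of the neighbouring mesenchyme, read 401 and 388. Its log2 ratio of -0.05 lay within the probe set spread and was above 0 after quantile (0.03) or loess (0.09) scaling, and its second probe set stood at -0.24. Wnt5a, a ligand of the polarity branch that limits airway branching, read 371 and 348, a log2 ratio of -0.09 that was 0.03 after loess. The other Wnt5a probe sets disagreed with each other: 209 and 149 (-0.49), 85.8 and 55.9 (-0.62) and 101 and 183 (0.87). The signals of this gene therefore give no single direction. Wnt11, also a ligand of the polarity branch, read 85.4 and 98.9, a log2 ratio of 0.21.

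Wnt7a, known for patterning the limb and the female reproductive tract, read 117 in wildtype and 191 on the array labelled Nmyc9a. It was 1.64-fold higher, and its second measured probe set, at 51.5, near the floor, and 78.9, was 1.53-fold higher. That probe set fell under 1.5-fold after quantile normalization (0.41) or loess (0.54). Both measured probe sets pointed the same way; a remaining one read under 1 on both arrays. Wnt8b, a ligand of the forebrain, read 42.8, under the floor, and 104, which makes it at least 2.10-fold higher. Its 2 other probe sets read between 2.54 and 6.6 on both arrays, so a single dim probe set carries the difference, and a floor set at the 60th percentile took its log2 ratio to 0.04.

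The remaining measured ligands were dim. Wnt3a, a canonical ligand of the body axis, read 129 and 106. Wnt4, a ligand of kidney tubule formation, read 91.1 and 65.9, a log2 ratio of -0.47, but its other probe set stood at 0.29 or higher. Wnt16, a ligand of cortical bone, read 69.6 and 40.6, giving -0.50 or lower, and Wnt1, a ligand of the midbrain, read 61.3 and 41.4, giving -0.31 or lower. Wnt6 stood at 0.26 or higher from 42.2 and 59.2. None of these 5 passed 1.5-fold, though quantile normalization took Wnt16 to -0.59 and Wnt4 to -0.65, past it, and loess took Wnt4 to -0.60. Wnt16 stood at -0.78 with no floor or with the floor at the 20th percentile. Below the floor on both arrays were Wnt2b, Wnt3, Wnt5b, Wnt8a, Wnt9a, Wnt9b, Wnt10a and Wnt10b. Among all 12 members below the floor the brightest probe sets read from 1.47 to 48.9, and nothing can be said of their differences.

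**Figure D2:**
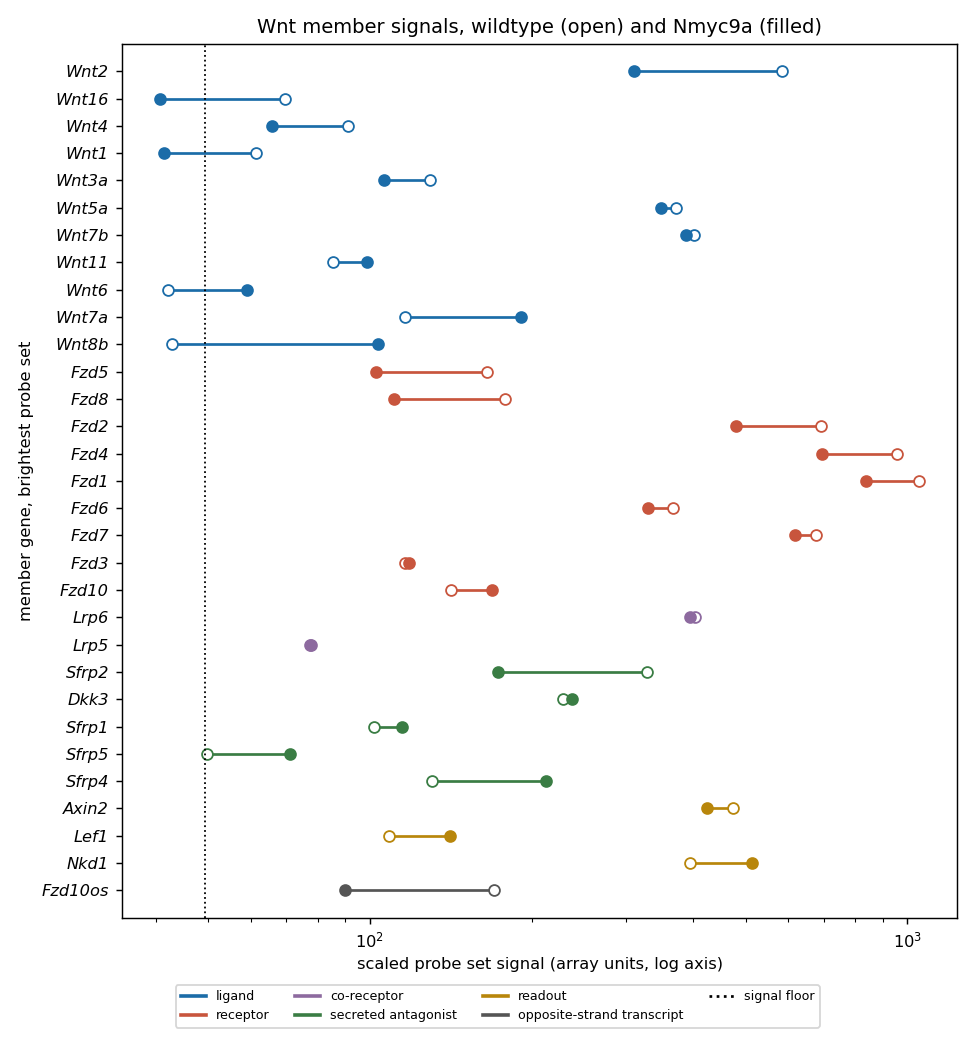
Scaled signal of the brightest probe set of each of the 31 measured members on a log axis, with an open circle for the wildtype array and a filled circle for the array labelled Nmyc9a, coloured by role; the dotted line is the floor of 49.3. The longest leftward steps among bright members are those of Wnt2 (585 to 310) and Sfrp2 (328 to 173), and 7 of the 9 Frizzled receptors lie to the left on the array labelled Nmyc9a.

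Among the Frizzled receptors, Fzd5, Fzd8 and Fzd2 had the lowest log2 ratios, and the position of the group against other genes depended on the scaling. Of 10 receptor genes 9 were measured, and 7 of these lay below 0, where 58.8% of all measured genes lay. Fzd5 and Fzd8 passed 1.5-fold downward, 2 of 9 against 9.71% of all measured genes, and none passed it upward. The receptor median was -0.33 against -0.09 for all measured genes, but -0.11 against -0.10 after quantile normalization and -0.11 against -0.04 after loess. Under both of these Fzd7 lay above 0 and Fzd3 below, so the 7 receptors below 0 were not the same ones. Proliferation markers, with a median of -1.02, were lower on the same array, and their part in the receptor values was not tested.

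Fzd2, which in lung acts in the branching epithelium, had the most even evidence. Its 3 probe sets read 690 and 479, 592 and 425, and 419 and 276. The log2 ratios were -0.53, -0.48 and -0.60, an SD of 0.06, and they stayed between -0.60 and -0.32 over the scalings. Only the last of them, at 1.52-fold lower, passed 1.5-fold. All 3 probe sets were thus lower by a like amount, though they read the same RNA pools and are not replicates.

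Fzd5, a receptor of canonical ligands, read 165 and 103 and was 1.61-fold lower; its other probe set was below the floor. Fzd8, its close relative, read 179 and 111 and was also 1.61-fold lower. The second Fzd8 probe set read 61.8 and 67.8, so its decrease rests on 1 of 2 probe sets, and the median of both was -0.28. Fzd4, the receptor that also binds Norrin in retinal vessels, read 958 and 693, a log2 ratio of -0.47. Its dimmer probe sets stood at -0.02 and -0.06, and each of these was above 0 under some scaling. Fzd1 read 1053 and 836, a log2 ratio of -0.33, with -0.21 on its other probe set, and both were below 0 under every scaling.

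The other receptors were close to their wildtype signals. Fzd7 read 676 and 618, a log2 ratio of -0.13 that was above 0 after quantile (0.03) or loess (0.06) scaling. Fzd6, which orients hairs in the skin, read 366 and 330 (-0.15), while another of its probe sets stood at 0.54. Fzd3, which guides axon tracts, read 116 and 118, a log2 ratio of 0.02 that was below 0 after quantile normalization (-0.11) or loess (-0.05). Fzd10 read 142 and 169, a log2 ratio of 0.25, and Fzd9 was below the floor. Fzd10os, the opposite-strand transcript, read 170 and 90.1 and was 1.89-fold lower, but its second probe set stood at 0.22 or higher. The probe sets of this non-coding transcript therefore disagreed in direction.

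The co-receptors did not differ beyond the probe set spread. Lrp6 read 402 and 393, a log2 ratio of -0.03 that was 0.05 after quantile normalization, and its second probe set read 122 and 143. Lrp5, which sets bone mass and retinal vessel growth, read 77.3 and 77.9, a log2 ratio of 0.01 that was -0.18 after quantile normalization. Neither passed 1.5-fold under any of the 10 alternative settings.

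**Figure D3:**
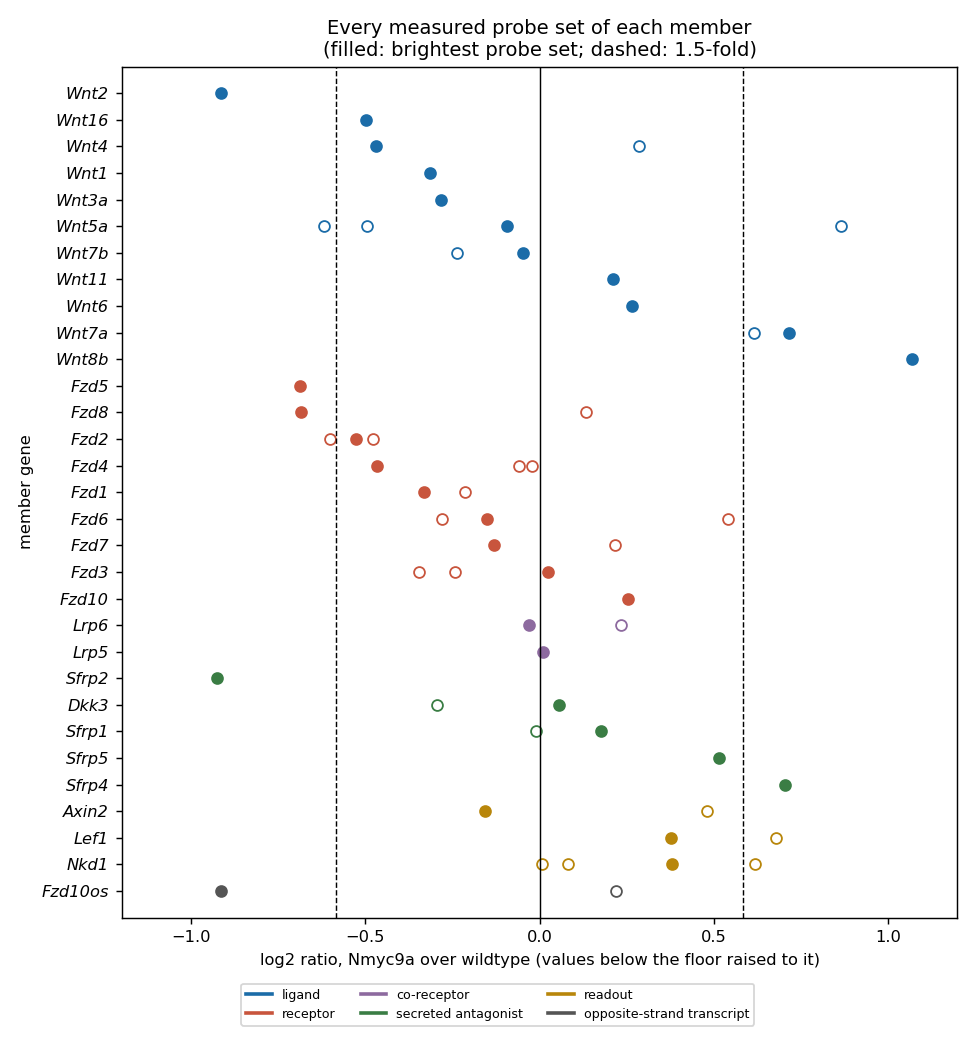
Log2 ratio of the array labelled Nmyc9a over wildtype for each of the 57 measured probe sets of the members (horizontal axis), grouped by gene and coloured by role; filled circles are the brightest probe set of a gene, and dashed lines mark 1.5-fold. Probe sets of Fzd2, Wnt7a, Lef1 and Nkd1 lie on 1 side of 0, whereas those of Wnt5a spread from -0.62 to 0.87.

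Probe sets of the same member often pointed in different directions. Of the 57 measured member probe sets, 7 (12.3%) passed 1.5-fold upward and 7 (12.3%) downward, against 9.31% and 9.24% of all 22457 measured probe sets with 1 symbol. Among the 18 members that had more than 1 measured probe set, 4 lay wholly below 0 (Fzd1, Fzd2, Fzd4 and Wnt7b) and 3 wholly above 0 (Lef1, Nkd1 and Wnt7a). The remaining 11 were split, and for Fzd4 and Wnt7b the agreement was lost under other scalings. How often probe sets of other genes split in this way was not counted, so the split cannot be called particular to the members.

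Secreted antagonists went in opposite directions. Sfrp proteins carry a Frizzled-like domain and bind Wnt ligands outside the cell, while Dkk proteins other than Dkk3 act on the Lrp co-receptors. Of 8 antagonist genes 5 were measured, 4 of them above 0 by their brightest probe set under all 5 scalings. Of all 12600 measured genes, 5194 lay above 0 under the main scaling. Under that scaling the second measured probe sets of Dkk3 (-0.30) and Sfrp1 (-0.01) lay below 0. Sfrp2 read 328 in wildtype and 173 on the array labelled Nmyc9a. It was 1.90-fold lower, a log2 ratio of -0.92, and between -0.94 and -0.76 under the 10 alternative settings. Like Wnt2 it has a single probe set, which settings of the floor or of the probe set choice could not move. Mesothelial markers (median -0.83) and smooth muscle and pericyte markers (median -0.64) were lower on the same array, and their part in the Sfrp2 value was not tested.

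Sfrp4 read 131 and 213 and was 1.63-fold higher, and between 0.54 and 0.79 on the log2 scale under the alternatives. Like Sfrp2 it has a single probe set. Sfrp5 read 49.7, at the floor, and 71.0, a log2 ratio of 0.52, with its other probe set below the floor. Sfrp1, which is prominent in the early lung mesenchyme, read 102 and 115, and its second measured probe set read 90.9 and 90.2. Neither Sfrp1 value left the probe set spread. Dkk3, a divergent family member, read 229 and 238 on 1 probe set and 247 and 201 on the other. Dkk1, Dkk2 and Dkk4 were below the floor.

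The 3 readout genes of canonical signalling did not share a direction by their brightest probe sets. Axin2, a direct beta-catenin target that rebuilds the destruction complex, read 473 and 424, a log2 ratio of -0.16. Its dim second probe set stood at 0.48 or higher, so the direction of Axin2 depends on the probe set. Lef1, a DNA-binding partner of beta-catenin and itself a target, read 109 and 141, a log2 ratio of 0.38, and its second probe set, at 50 and 80.1, was 1.60-fold higher. Nkd1, a feedback inhibitor that binds Dishevelled, read 394 and 513, a log2 ratio of 0.38. Its other 3 probe sets stood at 0.01, 0.08 and 0.62, and all 4 were above 0 under every scaling, as were both of Lef1. None of the 3 genes passed 1.5-fold by its brightest probe set. The brightest probe sets of the 3 readouts thus lay between -0.16 and 0.38.

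**Figure D4:**
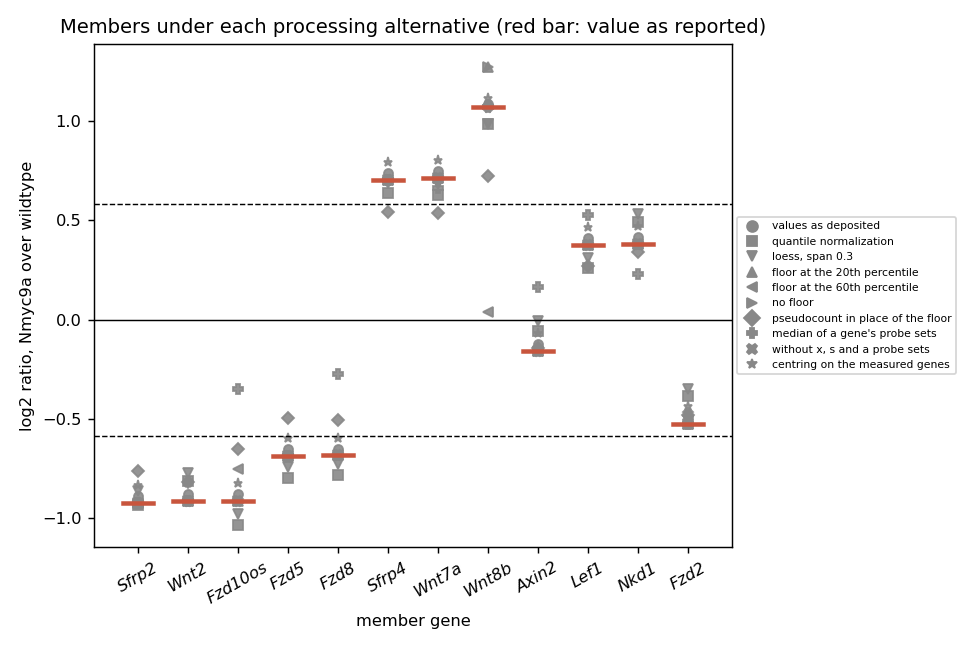
Log2 ratio of the array labelled Nmyc9a over wildtype for the 8 members past 1.5-fold and for Axin2, Lef1, Nkd1 and Fzd2, with a red bar for the value as reported and a grey symbol for each alternative setting; dashed lines mark 1.5-fold. Wnt2 and Sfrp2 lie beyond 1.5-fold under all 10 alternatives, not all of which could move them, while Wnt8b ranges from 0.04 to 1.27.

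Other genes of the pathway, from a list outside the membership rule, showed few differences by their brightest probe sets. The list held 88 symbols, the older names of Ccn4 and Ccn5 among them, of which 83 had a probe set with 1 listed symbol and 68 were measured. Of the 68, 2 were at least 1.5-fold higher and 1 was lower, against 6.32% and 9.71% of all measured genes, and the median was -0.06. Quantile normalization and loess each gave 5 higher and 1 lower.

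In ligand secretion, Wls, the carrier that takes Wnt proteins to the cell surface, read 787 and 640, and Porcn, which attaches their lipid, read 113 and 133. None of 10 measured receptors and co-receptors outside the rule passed 1.5-fold by its brightest probe set, and 7 of them lay below 0 (5 to 7 over the scalings). Gpc3, a glypican of the cell surface, stood lowest at -0.55 from 867 and 594, and Ror1 highest at 0.26, with -0.30 on its other probe set. The receptor Lgr4, which binds R-spondins, read 197 and 141, whereas Lgr5 read 102 and 121. Lgr6 read 160 and 155, with -0.58 on its other probe set. Among 6 measured secreted modulators none passed 1.5-fold; Notum, which removes the lipid from Wnt proteins, read 268 and 212 and Rspo1 read 114 and 123. Znrf3, which removes Frizzled from the membrane and is a Wnt target, read 260 and 305.

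Cytoplasmic transducers held the 1 gene that was lower by its brightest probe set. Of 16 measured, Btrc, which marks beta-catenin for degradation, was 1.74-fold lower by its brightest probe set (154 and 88.0), but its 3 other measured probe sets stood at 0.37, 0.65 and 1.05. Ctnnb1, beta-catenin itself, read 3994 and 3434, a log2 ratio of -0.22, with -0.36 and 0.08 on its other probe sets. Csnk1d, a kinase, stood highest at 0.43 by its brightest probe set, but its 4 others lay between -0.25 and 0.11. The median of this group was -0.15, and 0.01 after quantile normalization and 0.04 after loess.

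Of 14 nuclear effectors measured, 1 passed 1.5-fold upward and none downward by its brightest probe set. By their brightest probe sets 5 lay below 0, where 58.8% of all measured genes lay, and the median was 0.19 against -0.09, though other probe sets of several of these genes disagreed. Tle2, a Groucho corepressor, was 1.81-fold higher from dim signals of 79.8 and 144, and it has 1 measured probe set. Tle4, of the same family, stood at -0.38 by its brightest probe set and at 0.66 and 1.52 by dimmer ones, so it has no single direction. The coactivator Crebbp read 717 and 1005 (0.49), but its other probe sets stood at -0.14 and -0.01. Bcl9, which links beta-catenin to Pygo proteins, read 166 and 225 (0.44), with 0.63 on its other probe set.

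Among 10 measured genes of planar polarity, Vangl2, a core polarity protein, was 1.64-fold higher (180 and 294). Its other probe sets stood at 0.34 and 0.12, above 0 but smaller. Celsr2, an atypical cadherin, was the lowest at -0.33. Of 9 measured target genes outside the rule none passed 1.5-fold by its brightest probe set, though 1 did so upward after quantile normalization or loess. Of the 9, 6 lay below 0, where 58.8% of all measured genes lay. Their median was -0.11, and 0.11 after quantile normalization or loess. The mean of Sp5, another target, did not reach the floor, although it read 65.3 and 20.8. Ccnd1, the cyclin of G1, read 1673 and 1296, a log2 ratio of -0.37, with -0.45 and -0.50 on its other probe sets. Myc stood at -0.32 near the floor. The T-box gene Tbx3 stood at 0.40 and was the highest of this group. Its other measured probe sets stood at 0.36, 0.50 and 1.11.

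**Figure D5:**
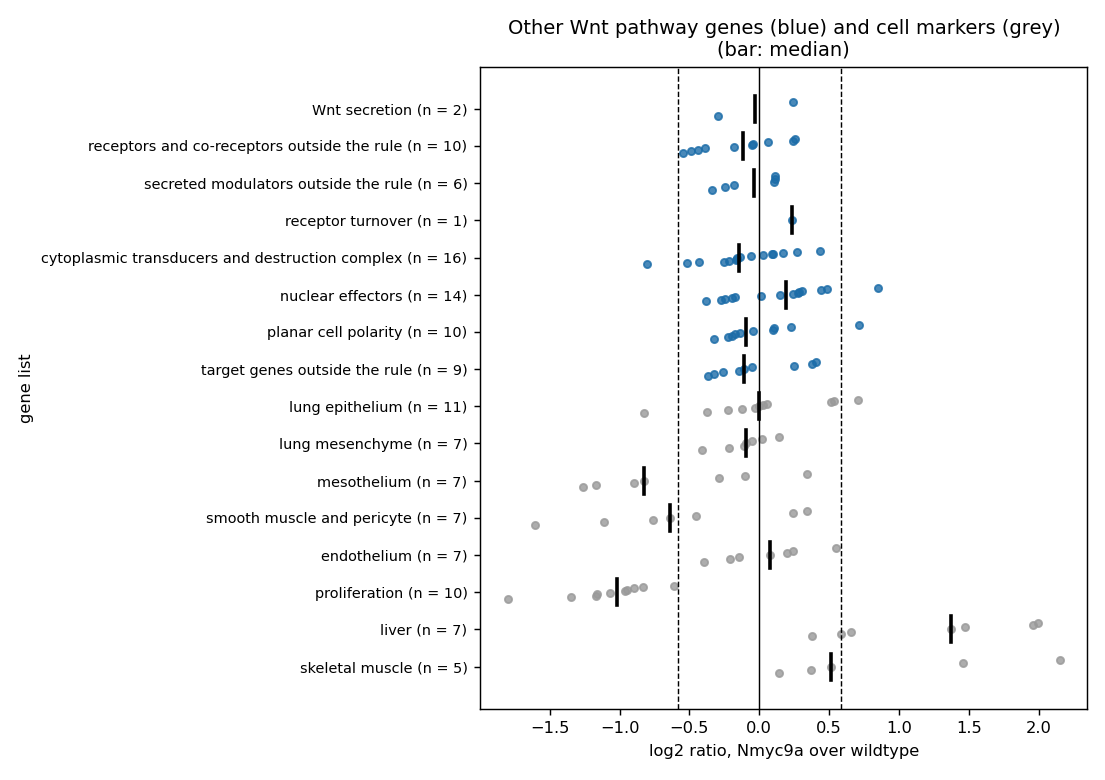
Log2 ratio of the array labelled Nmyc9a over wildtype for each measured gene of the other Wnt pathway groups (blue) and of cell marker lists (grey), 1 point per gene by its brightest probe set, with a black bar at the list median and dashed lines at 1.5-fold. Pathway groups centre between -0.15 and 0.24, while proliferation markers centre at -1.02 and liver markers at 1.37.

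Marker lists of growth and of other cell types differed between the arrays beside these genes, and their summed signals are given over the measured markers. All 10 proliferation markers measured, of 11 on the array, were at least 1.5-fold lower (summed signal 4950 and 2371), and the remaining one, Tyms, was below the floor. Of 8 mesothelial markers 7 were measured, 4 of them lower and none higher (3970 and 2119), and the mean of Wt1 did not reach the floor. Smooth muscle and pericyte markers had the same counts, 4 lower and none higher of 7 measured (5303 and 3665), with Cnn1 below the floor. None of the 7 mesenchymal markers passed 1.5-fold (17996 and 16832), nor did any of 7 endothelial markers (5543 and 5538). Of 11 epithelial markers 1 was higher and 1 lower (35678 and 34293). Liver markers were higher for 6 of 7 measured of 9 on the array (402 and 1306). The means of Ahsg and Fgb did not reach the floor, although Ahsg read 9.1 and 82.4. Skeletal muscle markers were higher for 2 of 5 measured of 8 (435 and 819), and the means of Myog, Tnnt3 and Tnni2 did not reach the floor. With quantile normalization or loess, 2 smooth muscle and pericyte markers were lower and 3 epithelial markers higher. Centring on the measured genes gave 3 smooth muscle and pericyte markers lower. It gave 3 epithelial, 1 endothelial and 3 skeletal muscle markers higher. Quantile normalization left 4 liver markers higher, and under each other scaling 9 proliferation markers were lower. The part of the proliferation, mesenchymal, mesothelial, smooth muscle, liver and skeletal muscle signals in the values of the members was not tested. In whole-lung RNA, fewer cells of a type and less RNA per cell cannot be told apart.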

How the data were processed

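The authors deposited 1 intensity per probe set and array, on a linear scale, from 1 Affymetrix array per group. Lung RNA was pooled, isolated with Trizol and an RNeasy kit and labelled with biotin, per the labels. The sources used here do not name the software or its scaling. The 64 control probe sets were set aside. The array labelled Nmyc9a was multiplied by 0.977 to bring to 0 the median log2 ratio over probe sets whose mean reached the floor, and signals were floored at their 40th percentile, 49.3. Genes took their brightest probe set. Symbols came from the platform annotation and were updated by Entrez identifier to GRCm38.p6, which changed no member. Every measured member was named; of other pathway genes, those past 1.5-fold and the extremes of each group, with examples chosen after their values were seen. The members and lists were chosen with earlier results of these data known. Scaling, floor, pseudocount and probe set choices were varied (Python 3.11.15, statsmodels 0.14.6 for loess); the scaling and ratio steps were tested on simulated data. No count, depth or detection call was used.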

Additional observations from a re-analysis of the deposited data

How the results depend on the processing

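Of 310 values of single members under 10 alternatives, 303 moved by less than 0.40, the SD across probe sets of 1 gene, and no member past 1.5-fold changed sign. Wnt2 and Sfrp2 stayed past 1.5-fold under all 10, Fzd5, Fzd10os, Sfrp4, Wnt7a and Wnt8b under 9, and Fzd8 under 8. Signals above every floor are unchanged by the floor settings, so part of the 303 could not move. Wnt2 and Sfrp2 have 1 probe set each, above every floor, so only the scalings and the pseudocount could move them. The count of members 1.5-fold higher (3) was 1 with a pseudocount of 50 and 1 at 2-fold. The count 1.5-fold lower (5) was 8 with the floor at the 20th percentile, where 39 members were measured, 3 with the pseudocount, 3 when a gene took the median over its probe sets and 0 at 2-fold. All measured genes were not counted under these floor, pseudocount and median settings. The member counts there therefore cannot be set against other genes. The members' median was -0.0073 after loess and -0.0037 after centring on the measured genes, an alternative chosen after seeing the data. Other pathway genes past 1.5-fold (3) numbered 6 after quantile normalization, 6 after loess, 8 with the lower floor, 1 without probe sets ending in _x_at, _s_at or _a_at, 0 with the pseudocount and 0 at 2-fold. The causes were not tested. No paired analysis was possible because each group holds 1 array. Dim signals limit the 12 members below the floor, for which no difference can be given.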

Other observations

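Several Wnt genes lie next to each other as pairs. In the RefSeq order of protein-coding genes, 4 pairs of members were direct neighbours, namely Wnt6 and Wnt10a, Wnt3a and Wnt9a, Wnt9b and Wnt3, and Wnt10b and Wnt1. In 3 of these pairs 1 gene was measured and the other was below the floor on both arrays, and in the pair of Wnt9b and Wnt3 both were below it. The measured ones were Wnt6, at a log2 ratio of 0.26 or higher, Wnt3a, at -0.28, and Wnt1, at -0.31 or lower, and none of them was 1.5-fold apart.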
